A study of Mus musculus with 12 samples.

Results

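Mir9-3hg and Platr10 are long non-coding RNA genes of the mouse, and their levels were followed in NE-4C cells with and without the gene Faf2. Both were chosen by name because earlier results of these data showed them far higher in Faf2 knockout (KO) cells than in wildtype (WT) cells. They are 2 of 57010 genes in the table, and both were among the 16502 genes that passed the filter on low counts. NE-4C is an established line of neural progenitor cells from the brain of p53-deficient mouse embryos at E9. Faf2 encodes an adaptor of the endoplasmic reticulum (ER) membrane that helps to pull misfolded proteins out for degradation. Poly(A) RNA was sequenced from 12 libraries, 3 in each of 4 groups. WT NO and KO NO cells received no retinoic acid (RA). WT RA and KO RA cells were given 1 µM all-trans RA for 24 h, which starts neuronal differentiation, and were collected on day 3. The KO line carries a CRISPR/Cas9 deletion of Faf2 exon 4 and was grown from picked colonies, so a difference between KO and WT lines cannot be told apart from a difference between the colony and its parent cells. The 3 libraries of a group came from independent passages of the same line.

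Mir9-3hg is the host gene of Mir9-3, which encodes a hairpin of miR-9. A host gene is transcribed as a long RNA, and the enzyme Drosha cuts the microRNA hairpin out of that RNA before Dicer trims it to the mature form. The microRNA miR-9 is abundant in the developing brain, where it is known for moving neural progenitors toward neurons by lowering regulators such as Nr2e1, Hes1 and Rest. Platr10 belongs to the Platr genes (pluripotency-associated transcripts), long non-coding RNAs that were named for their expression in embryonic stem cells and their fall on differentiation. Libraries of poly(A) RNA measure the host RNA and not the mature microRNA, so no value here is a level of miR-9.

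The mature products that Mir9-3hg carries are shown first, because they tie the gene to its known role. Sequences are those of RefSeq, written 5′ to 3′, with the seed (bases 2 to 8, which pair with targets) in capitals. The same pair of mature sequences lies in 3 hairpins of the genome, and no other mouse microRNA in RefSeq shared either seed.
mmu-miR-9-5p: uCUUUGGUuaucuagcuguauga
mmu-miR-9-3p: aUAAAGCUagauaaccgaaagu

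The hairpins differ outside the mature parts, so a host gene can be told from the others although its mature product cannot. They are printed below with miR-9-5p in capitals. On GRCm39, Mir9-1 lies at chr3:88122905-88122993, Mir9-2 at chr13:83886933-83887004 and Mir9-3 at chr7:79155012-79155101, all on the forward strand.
Mir9-1: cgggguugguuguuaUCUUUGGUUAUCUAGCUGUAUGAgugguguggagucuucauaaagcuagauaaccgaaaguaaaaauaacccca
Mir9-2: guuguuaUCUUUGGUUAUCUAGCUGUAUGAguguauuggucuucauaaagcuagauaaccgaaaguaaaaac
Mir9-3: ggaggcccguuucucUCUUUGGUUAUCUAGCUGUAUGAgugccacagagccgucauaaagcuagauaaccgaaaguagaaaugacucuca

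Mir9-3hg (ENSMUSG00000097023) spans chr7:79146444-79184154 on the forward strand of GRCm39, and GENCODE lists 74 transcripts for it. Its canonical transcript has 3 exons and 3457 nt when spliced. In this transcript the Mir9-3 hairpin lies in intron 1, 5192 bp from the start. The hairpin is intronic in 16 of the 74 transcripts, wholly exonic in 1, partly exonic in 8 and outside the other 49. Platr10 (ENSMUSG00000099370) spans chr3:75554748-75563126 on the reverse strand and has 9 listed transcripts, the canonical one of 4 exons and 970 nt. Both genes thus have multi-exon canonical transcripts in the annotation and lie on different chromosomes.

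The sequences around the starts of both genes, 250 bases before and 50 after the RefSeq start, are shown because the genes were chosen for moving together between genotypes. A search for 10 short motifs on both strands (the cAMP response element TGACGTCA, the E-box CACGTG, an E2F-type site TTCCCGC, the GC box GGGCGG, the CCAAT box CCAAT, the TATA box TATAAA, the C/EBP-ATF element TGATGNAA, the ER stress element and a pair of retinoic acid elements of the DR5 type) was run on 32851 RefSeq promoters of that length. The ER stress element contains a CCAAT box. RefSeq gives Mir9-3hg another start, for which the window is chr7:79164933-79165232, and the one nearer the annotated start of the canonical transcript is shown. Capitals mark matches other than GC and CCAAT boxes.
Mir9-3hg, chr7:79149524-79149823, forward strand: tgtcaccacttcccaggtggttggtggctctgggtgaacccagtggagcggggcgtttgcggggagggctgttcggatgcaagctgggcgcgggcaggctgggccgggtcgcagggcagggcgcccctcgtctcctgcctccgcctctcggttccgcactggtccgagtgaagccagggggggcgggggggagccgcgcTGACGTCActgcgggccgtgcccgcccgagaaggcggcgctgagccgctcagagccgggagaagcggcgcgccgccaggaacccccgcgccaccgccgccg
Platr10, chr3:75562989-75563288, reverse strand: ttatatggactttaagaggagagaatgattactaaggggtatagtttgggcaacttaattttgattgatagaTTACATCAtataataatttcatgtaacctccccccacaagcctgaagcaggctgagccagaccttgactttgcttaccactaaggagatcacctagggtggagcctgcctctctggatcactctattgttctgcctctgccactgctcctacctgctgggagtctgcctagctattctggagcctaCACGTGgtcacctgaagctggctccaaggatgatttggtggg

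The promoters differed in base composition. Mir9-3hg starts in a CpG island-like sequence with 75.0% GC and 35 CpG sites, and 96.1% of the promoters had lower GC. Platr10 starts in sequence with 47.0% GC and 1 CpG site, and 28.4% of promoters had lower GC. The Mir9-3hg window held 1 cAMP response element, 51 bases before the start, and 2 GC boxes. This element was in 1.79% of all promoters and the GC box in 35.7%. The Platr10 window held 1 E-box, which begins at base 9 from the start and was found in 7.15% of promoters, and 1 C/EBP-ATF element at base −178, found in 3.97%. Neither held the ER stress element (0.119% of promoters) or a retinoic acid element (0.00913% and 0.0244%), and the CCAAT box (37.4%), TATA box (13.6%) and E2F-type site (4.60%) were also without a match. The other Mir9-3hg window had 70.7% GC and 28 CpG sites, with 1 GC box and 1 CCAAT box and none of the other motifs. These are matches of letters and say nothing about binding.

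Levels are given as CPM (counts scaled to a common library size), from deposited counts that were corrected for gene length, so that levels of different genes can be compared. Library totals ran from 17370069 to 30738717 counts. Library KO RA 3 stood apart. Its TMM factor (edgeR's scaling between libraries) was 0.394 against 0.872 to 1.28 in the other 11, and 84.6% and 85.7% of genes differed from KO RA 2 and KO RA 1 by more than sampling noise, against 43.0% to 73.2% in all other pairs of one group. The main results are therefore given also without it. Of 5 neural progenitor markers, all were above 3 counts in every group, with sums of 169 to 324 CPM in each library. Of 12 pluripotency markers, 11 were above 3 counts in every group, with sums of 1600 to 4120 CPM, and Zfp42 was at or under 3 counts. Faf2 itself had 41.6 ± 7.41 CPM in WT NO and 22.7 ± 2.38 CPM in KO NO (SD, n = 3), without overlap. Its log2 fold change of −0.87 (SE 0.27) did not pass the test (edgeR adjusted p = 0.179) but passed under 4 of 19 alternatives (lowest adjusted p, by limma-voom, 0.00134). After RA the groups overlapped, with 35.1, 37.8 and 49.0 CPM in WT RA and 36.1, 34.3 and 18.7 CPM in KO RA (edgeR adjusted p = 0.395). The deletion covers 1 exon, and reads from the remaining exons still count toward the gene.

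Mir9-3hg was close to the limit of detection in WT cells and at a middle level in KO cells. In WT NO it had 0.176, 0.185 and 0.183 CPM, from 4.79 to 6.11 deposited counts. In KO NO it had 13.7, 11.0 and 12.9 CPM. All KO NO libraries lay far above all WT NO libraries, with means of 12.5 ± 1.34 and 0.181 ± 0.0046 CPM (SD, n = 3). After RA, WT cells had 0.577, 0.291 and 0.143 CPM, a mean of 0.337 ± 0.220, and the lowest of these was at the floor of 3 counts. KO RA cells had 5.32, 4.25 and 5.35 CPM, a mean of 4.97 ± 0.624, again with no overlap with WT RA. Without TMM factors these KO RA values were 6.79, 5.21 and 2.10 CPM, so their closeness depends on the factor of KO RA 3. Fewer cells with this RNA and less of it per cell cannot be told apart in such bulk samples.

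Platr10 was present in every library and was the higher of the pair throughout. It had 11.9, 10.3 and 7.26 CPM in WT NO, and 97.3, 105 and 102 CPM in KO NO. The KO NO libraries were close to each other and all above the WT NO libraries, with means of 101 ± 3.89 and 9.82 ± 2.35 CPM (SD, n = 3). WT RA libraries had 7.40, 9.35 and 4.49 CPM, a mean of 7.08 ± 2.45. In KO RA the levels were 27.6, 43.4 and 44.1 CPM, a mean of 38.4 ± 9.32 (35.2, 53.2 and 17.3 CPM without TMM factors). The order of the group means was the same for both genes among KO groups (KO NO, then KO RA), and both KO groups were above both WT groups in every library. The order of the WT groups differed, but within WT neither gene's groups separated.

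**Figure D1:**
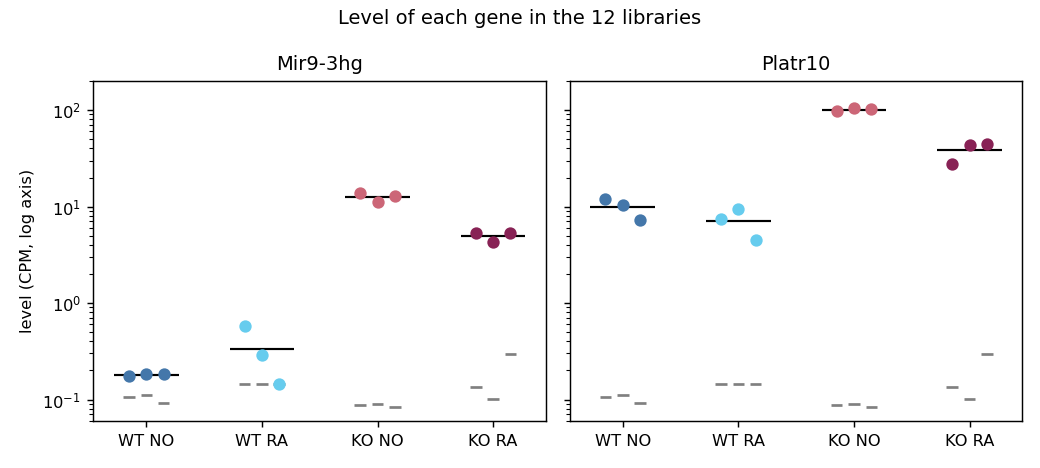
Level of Mir9-3hg (left) and Platr10 (right) in CPM on a log axis, with a point for each library, a black bar for the group mean and a grey dash at the CPM that 3 counts make in that library. Both genes are highest in KO NO, at means of 12.5 and 101 CPM, and Mir9-3hg in WT libraries lies near the grey dashes.

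The difference between genotypes chose these genes, so its size is given as a description with no test. Mir9-3hg was 67.4-fold higher in KO NO than in WT NO, a log2 fold change of 6.08 (SE 0.44), and 14.6-fold higher in KO RA than in WT RA (log2 3.86, SE 0.40). Without library WT RA 1, the WT RA library with the most Mir9-3hg, the second value became 4.48. For Platr10 the fold was 10.3 without RA (log2 3.37, SE 0.32) and 5.41 after RA (log2 2.44, SE 0.31). Ranked by the change without RA, Mir9-3hg was number 126 and Platr10 number 307 of 16502 tested genes, and numbers 11 and 46 of 1328 tested lncRNA genes. In that comparison 1.14% of tested genes were called, 0.788% higher and 0.351% lower, while 5.81% and 6.37% were higher and lower by an unadjusted p under 0.05. Without overlap, KO NO was the higher group for 15.5% of genes and the lower for 15.2%. In KO RA against WT RA 1.24% were called, 0.885% higher and 0.358% lower, with 10.9% and 6.67% by unadjusted p, and the libraries were all above for 9.96% of genes and all below for 10.9%.

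The same change can be read from the place of each gene among all lncRNA genes. By mean CPM, Mir9-3hg was number 1446 of 3247 lncRNA genes above 0 in WT NO and number 52 of 3363 in KO NO. It was number 1128 of 3378 in WT RA and 172 of 3379 in KO RA. Platr10 went from number 72 in WT NO to number 11 in KO NO, and from 104 in WT RA to 28 in KO RA. Platr10 was 39.0 to 68.2 times as high as Mir9-3hg in WT NO, 13.1 to 34.6 times in WT RA, 7.13 to 9.51 times in KO NO and 5.20 to 10.2 times in KO RA. The ratio in KO libraries thus stayed within a narrow range with and without RA, and lay below that of every WT library.

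Both RNAs were lower after RA in KO cells. This comparison was not used to choose the genes, but its libraries were, and genes picked for high levels in KO NO lean toward a fall from there. From KO NO to KO RA, Mir9-3hg fell by 1.33 on the log2 scale (SE 0.34, edgeR adjusted p = 0.0457), and all KO RA libraries were below all KO NO libraries. Platr10 fell by 1.40 (SE 0.30, edgeR adjusted p = 0.0229), also without overlap. In this comparison 5.48% of tested genes were called, 3.89% higher and 1.59% lower (15.8% and 9.42% by unadjusted p). All KO RA libraries lay below all KO NO libraries for 16.9% of genes and above them for 13.2%. Without KO RA 3 the changes were −1.40 (edgeR adjusted p = 0.0182) and −1.52 (edgeR adjusted p = 0.00776). For Mir9-3hg the call was lost when any one of 9 libraries was left out (the 3 WT NO libraries, WT RA 2, the 3 KO NO libraries, KO RA 1 and KO RA 2), at edgeR adjusted p from 0.0502 to 0.186. For Platr10 it was lost without KO NO 1, KO NO 2 or KO NO 3 (0.0921, 0.0892 and 0.0888) or without KO RA 1 (edgeR adjusted p = 0.0567).

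Markers of several cell types moved in the same comparison, where 3.89% of all tested genes rose. Of 5 neural progenitor markers 2 rose, Nes and Cdh2 (sums of 254 to 289 CPM in KO NO and 169 to 324 CPM in KO RA). None was called lower, while by an unadjusted p under 0.05, 3 were higher and 1 lower. Otx2 had 132, 162 and 160 CPM in KO NO and 81.9, 104 and 19.4 CPM in KO RA, without overlap. Of 6 mesenchymal markers 5 rose, and their summed level was 32.6 to 40.8 CPM in KO NO, where Col1a1 was at the floor, and 85.5 to 206 CPM in KO RA. Of 3 tested endothelial markers 2 rose, Kdr and Tek (sums of 1.07 to 2.01 and 4.16 to 12.6 CPM, with Cdh5 at the floor in KO NO). Of 7 neuron markers 2 rose, Tubb3 and Map2 (71.6 to 89.3 and 143 to 207 CPM), and none was called lower. By an unadjusted p under 0.05, 3 neuron markers were higher and 1 lower. Rbfox3 had 1.52, 1.27 and 2.065 CPM in KO NO and 0.451, 0.783 and 0.0990 CPM in KO RA, without overlap. The sums of the pluripotency markers were 2300 to 2730 CPM in KO NO and 1600 to 2590 CPM in KO RA. In WT cells 3 of the 6 mesenchymal markers also rose with RA, where 0.321% of all tested genes did. The summed level of the 6 was 21.1 to 54.8 CPM in WT NO and 80.9 to 89.1 CPM in WT RA. No neural progenitor, endothelial or neuron marker was called in WT cells. The summed level of the 7 neuron markers was still higher with RA there, at 141 to 160 CPM in WT RA, above every WT NO library. In WT cells 2 neuron markers were higher and 1 lower by an unadjusted p under 0.05. Map2 had 2.32 to 4.80 CPM in WT NO and 8.55 to 15.2 CPM in WT RA. Dcx had 0.152 to 2.11 and 6.35 to 7.32 CPM. Rbfox3 went the other way, with 0.528 to 4.76 and 0.288 to 0.436 CPM. Leaving out 1 library ended the calls in KO cells of Tek for 10 libraries, Snai2 for 9 and Nes for 7. It ended those of Kdr and Tubb3 for 3 libraries, and of Cdh2 and Map2 for 2. The KO calls of Col1a1, Col1a2, Col3a1 and Prrx1 were kept under every alternative that gave a value. In WT cells the call of Col1a2 was lost for 5 libraries, and those of Col3a1 and Prrx1 for 1. The part of these markers and their cell types in the fall of Mir9-3hg and Platr10 was not tested.

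In WT cells neither gene passed the test. From WT NO to WT RA the log2 fold change of Mir9-3hg was 0.88 (SE 0.44, edgeR adjusted p = 0.453) and that of Platr10 was −0.47 (SE 0.30, edgeR adjusted p = 0.585). The groups overlapped for both genes, and 0.406% of all tested genes were called in this comparison, 0.321% higher and 0.0848% lower (6.76% and 5.79% by unadjusted p). Without overlap, WT RA was the higher group for 15.1% of genes and the lower for 14.0%. At about 5 scaled counts a library, which stand only roughly for reads, a change of Mir9-3hg in WT cells was hardly measurable.

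Whether RA acted differently in KO and WT cells was tested as an interaction. The response of Mir9-3hg in KO cells was lower than in WT cells by a log2 difference of −2.21 (SE 0.56), and that of Platr10 by −0.93 (SE 0.42). Neither passed the test, with edgeR adjusted p of 0.320 and 0.579 (unadjusted 0.00205 and 0.0483). This difference is made of the same contrasts that chose the genes, and genes picked for a high untreated KO level lean toward a negative value, so these p-values are not independent evidence. By edgeR no gene passed in this comparison (0 of 16502, 0.0%), while 913 genes (5.53%) had an unadjusted p under 0.05 with a higher response in KO and 510 (3.09%) with a lower one. DESeq2's Wald test called 214 and 95 genes, Mir9-3hg among them (log2 difference −2.16, adjusted p = 0.0423). Platr10 was not called by either tool. Without KO RA 3, edgeR called 139 genes higher and 93 lower, and Mir9-3hg and Platr10 had edgeR adjusted p of 0.0682 and 0.184. Without WT RA 1 the difference of Mir9-3hg was −1.60 (edgeR adjusted p = 0.787).

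The other hosts of miR-9 were low in all groups. C130071C03Rik (ENSMUSG00000050334, chr13:83863087-84100589), which GENCODE names Mir9-2hg, had 1.30, 0.850 and 0.671 CPM in WT NO and 0.526, 0.651 and 0.558 CPM in KO NO. All KO NO libraries were lower here, with a log2 fold change of −0.70 that did not pass the test (SE 0.39, edgeR adjusted p = 0.544). With RA it rose in KO cells, to 1.58, 1.23 and 2.28 CPM (log2 fold change 1.53, SE 0.40, edgeR adjusted p = 0.0495). That call held under 6 of 19 alternative settings and was lost when any one of 10 libraries was left out. In WT RA it had 2.35, 2.04 and 2.44 CPM, all above WT NO (log2 fold change 1.27, SE 0.39, edgeR adjusted p = 0.207). Thus, in KO cells after RA, this host and Mir9-3hg moved in opposite directions. Gm3764 (ENSMUSG00000097156), which overlaps Mir9-1 on the same strand, did not pass the filter, with 0 to 0.288 CPM in all libraries.

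Summed over these 3 host genes, the level was 0.915 to 1.48 CPM in WT NO and 11.9 to 14.3 CPM in KO NO. Mir9-3hg made up 11.9% to 20.0% of the sum in WT NO libraries and 93.0% to 95.7% in KO NO libraries. After RA its share was 5.26% to 17.9% in WT cells and 70.1% to 76.6% in KO cells. In WT cells most of the summed counts thus came from C130071C03Rik, and in KO cells most came from Mir9-3hg. These are counts of whole genes, and the hairpin lies outside 49 of the 74 transcripts of Mir9-3hg. How much of the counted RNA held a hairpin was not measured. The hairpin genes Mir9-1, Mir9-2 and Mir9-3 themselves were listed at 0 in every library.

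**Figure D2:**
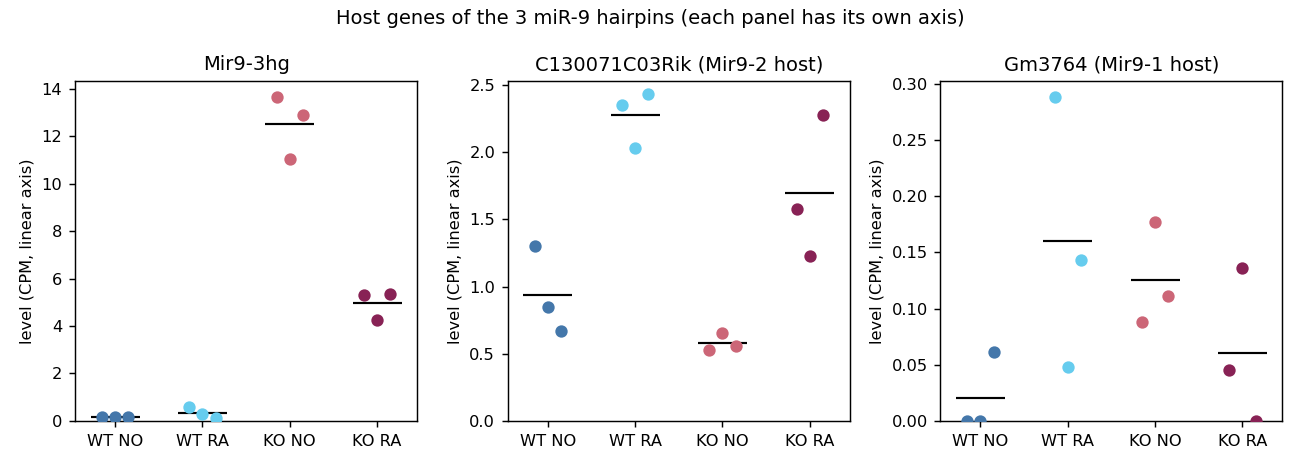
Levels of the genes that host the 3 miR-9 hairpins, in CPM on linear axes that differ between panels, with a point for each library and a bar for the group mean. Mir9-3hg reaches 12.5 CPM on average in KO NO, where C130071C03Rik is at its lowest mean of 0.579 CPM and Gm3764 stays under 0.2 CPM.

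Several microRNA host genes rose with RA in KO cells. Of 14 host genes besides Mir9-3hg, 7 passed the filter. Between genotypes edgeR called 0 without RA (by an unadjusted p under 0.05, 3 were lower) and 0 after RA (0 by unadjusted p), and DESeq2 called 3 and 0. From KO NO to KO RA, 5 of the 7 rose and none fell, where 3.89% of all tested genes rose and 1.59% fell (median log2 fold change of the 7, 1.97 with genes at the floor of 3 counts set to their bound, against 0.11 over all tested genes). The 5 were C130071C03Rik, Mir100hg, Mir670hg, Mir99ahg and Mir124a-1hg. Mir100hg, host of miR-100, let-7a and miR-125b, went from 0.205, 0.414 and 0.251 CPM to 14.5, 8.51 and 7.13 CPM (log2 fold change 5.10, SE 0.59, edgeR adjusted p = 0.00130), a call kept under all 18 alternatives that gave a value. It was also the 1 host called in WT cells with RA, where it had 4.82 to 7.85 CPM against 0.106 to 0.628 CPM (log2 fold change 3.90, SE 0.56, edgeR adjusted p = 0.0246). This WT call was kept under 10 of 18 alternatives and lost when any one of 7 libraries was left out. Mir99ahg was at the floor in KO NO and had 4.51, 2.21 and 13.9 CPM in KO RA, at least 79.1-fold higher (edgeR adjusted p = 0.00192) and at least 38.7-fold higher without KO RA 3. Mir670hg went from 1.22 ± 0.398 CPM to 10.2 ± 7.76 CPM, without overlap (log2 fold change 3.05, edgeR adjusted p = 0.0157; 2.25 without KO RA 3). Mir124a-1hg, a host of the neuronal miR-124, was listed at 0 in all KO NO libraries and had 0.170 to 0.451 CPM in KO RA, at least 3.91-fold higher (edgeR adjusted p = 0.0357). Under the 19 alternatives the count of called hosts lay between 2 and 5, and was 4 without KO RA 3. Before RA, all KO libraries lay under all WT libraries for Mir670hg, Mir99ahg and Mir124a-1hg, and none of these was called. Mir670hg had 4.70 to 11.8 CPM in WT NO and 0.918 to 1.67 CPM in KO NO (log2 fold change −2.76, edgeR adjusted p = 0.0512). After RA, KO and WT libraries overlapped for each of them. Group means in KO RA and WT RA were 10.2 and 12.2 CPM for Mir670hg and 6.86 and 2.58 CPM for Mir99ahg. For Mir124a-1hg they were 0.339 and 0.449 CPM. Mir17hg, host of the miR-17 to miR-92 cluster, had 1.38 ± 0.182, 1.77 ± 0.361, 1.57 ± 0.535 and 2.23 ± 1.16 CPM in WT NO, WT RA, KO NO and KO RA, with overlap in every comparison. Mir124-2hg had 0.0369 to 0.488 CPM over all libraries and was not called. The remaining 7 host genes did not pass the filter. Mir9-3hg was the only host among these 15 with its highest mean in KO NO, being number 1 of the 15 in KO NO, 4 in KO RA, 8 in WT RA and 9 in WT NO. Because Mir9-3hg was chosen for its high level in KO cells, this order is only a description.

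Genes that make or regulate microRNAs were not called between genotypes. All 23 matched on the list passed the filter, and edgeR called 0 without RA (by an unadjusted p under 0.05, 1 was higher) and 0 after RA (1 higher, 2 lower). DESeq2 called 0 and 2, and the other alternatives 0 to 3 and 0 to 5. The median log2 fold change was −0.11 and −0.06, against −0.02 and 0.09 over all tested genes. With RA, 3 fell in KO cells, where 1.59% of all tested genes did, and 1 in WT cells, where 0.0848% did. Under the alternatives 0 to 9 and 0 to 8 were called, with 8 and 6 when KO RA 3 was left out. Lin28a, which blocks the processing of let-7, fell in KO cells from 208, 192 and 232 CPM to 77.5, 80.9 and 21.3 CPM (log2 fold change −1.81, SE 0.41, edgeR adjusted p = 0.0305). Its paralogue Lin28b fell in KO cells (log2 −0.99, SE 0.22, edgeR adjusted p = 0.0280) and in WT cells, there from 19.2, 19.2 and 26.1 CPM to 6.73, 6.59 and 7.83 CPM (log2 −1.61, SE 0.22, edgeR adjusted p = 0.0220). Tarbp2, a partner of Dicer, fell in KO cells by 0.78 (SE 0.20, edgeR adjusted p = 0.0446). Leaving out 1 library ended the call of Lin28a for 7 libraries, of Tarbp2 for 11, and of Lin28b for 4 in KO and 5 in WT.

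Known targets of miR-9 were read from their own RNA. Of 21 listed, 16 passed the filter. Between genotypes edgeR called 1 lower with and without RA, where 0.358% and 0.351% of all tested genes were lower. By an unadjusted p under 0.05, 2 were higher and 3 lower without RA, and 2 and 1 after RA, and the alternatives called 0 to 6 and 0 to 5. The gene called was Pax6, a transcription factor of neural progenitors. It had 9.29, 8.79 and 4.12 CPM in WT NO and 0.790, 1.10 and 2.01 CPM in KO NO (log2 fold change −2.50, SE 0.45, edgeR adjusted p = 0.0264). After RA it had 11.8, 14.6 and 14.9 CPM in WT and 4.33, 1.84 and 2.77 CPM in KO (log2 −2.21, SE 0.44, edgeR adjusted p = 0.0396). The groups did not overlap in either comparison, and leaving out 1 library ended the calls for 7 and 10 of the 12 libraries. The median log2 fold change of the 16 was 0.04 in KO NO against WT NO and −0.04 in KO RA against WT RA, near that of all tested genes (−0.02 and 0.09). Besides Lin28b, which is on this list too, Onecut1 changed with RA, from 0.0296 to 0.0585 CPM in KO NO to 0.0990 to 1.49 CPM in KO RA (edgeR adjusted p = 0.0472). Onecut1 was at the floor in KO NO, and its call was kept under 6 of 17 alternatives and lost when any one of 9 libraries was left out. Rest and Hes1, named for their role after their values were seen, did not pass in any comparison. Rest had 29.6 ± 3.20 CPM in WT NO and 40.8 ± 3.86 CPM in KO NO, and Hes1 had 23.3 ± 0.847 and 23.7 ± 3.23 CPM. Nr2e1 did not pass the filter.

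Among the Platr genes Platr10 stood out by level in KO NO, which is a description, since it was chosen for being high in KO cells. In KO NO it was the first of 28 Platr genes in every library, at 97.3 to 105 CPM against 7.43 to 10.4 CPM for the next, Platr25. In WT libraries it was number 1 to 5, and Platr25 had 9.86 to 13.8 CPM there. In KO RA 3 Platr25 came near it, at 42.7 against 44.1 CPM. Of the 27 other Platr genes, 12 passed the filter, and edgeR called 0 in each of the 5 comparisons. By an unadjusted p under 0.05, 2 were higher and 0 lower between genotypes without RA, and 3 and 0 after RA. With RA, 1 was higher and 1 lower in WT cells, 1 and 0 in KO cells, and 1 and 0 in the interaction. DESeq2 called 2, 2, 2, 0 and 0, and over all alternatives the most were 5, 3, 2, 3 and 3. With genes at the floor set to their bound, the median log2 fold change of the 12 was 0.10 in KO NO against WT NO and 0.88 in KO RA against WT RA.

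The Platr genes with the smallest adjusted p between genotypes were higher in KO cells, and others were lower. Platr4 was listed at 0 in all WT RA libraries and in 2 of 3 WT NO libraries (0.211 CPM in the third), and had 1.64, 1.33 and 1.95 CPM in KO NO and 1.71, 0.783 and 5.05 CPM in KO RA. Its edgeR adjusted p was 0.147 without RA and 0.0519 after RA. Without KO RA 3 the latter was 0.0247. Platr20 had 5.15, 4.74 and 3.57 CPM in KO NO and 6.58, 5.51 and 8.12 CPM in KO RA, against 0 to 0.0969 CPM in WT RA (edgeR adjusted p = 0.0526). In WT NO it had 0.106, 0.0369 and 3.63 CPM, so the groups without RA overlapped. Platr11 had 2.95, 7.22 and 4.33 CPM in KO NO, where WT NO had 0.976 to 1.90 CPM (log2 fold change 1.74, SE 0.42, edgeR adjusted p = 0.0848). Platr22 had 6.29 ± 1.30 against 3.32 ± 0.683 CPM, without overlap (edgeR adjusted p = 0.636). Platr8 went the other way, with 0.409, 0.266 and 0.140 CPM in KO NO against 1.48, 0.739 and 7.32 CPM in WT NO, all KO NO libraries lower (log2 fold change −3.53, SE 1.65, edgeR adjusted p = 0.422). Platr5 had 0.364 ± 0.167 against 2.05 ± 1.84 CPM, with overlap. Platr3, Platr16, Platr21 and Platr27 had overlapping groups in every comparison. With RA in WT cells, Platr11 reached 3.93 to 5.16 CPM and Platr14 reached 5.14 to 8.12 CPM, both above every WT NO library and neither past the test (edgeR adjusted p = 0.128 and 0.526).

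**Figure D3:**
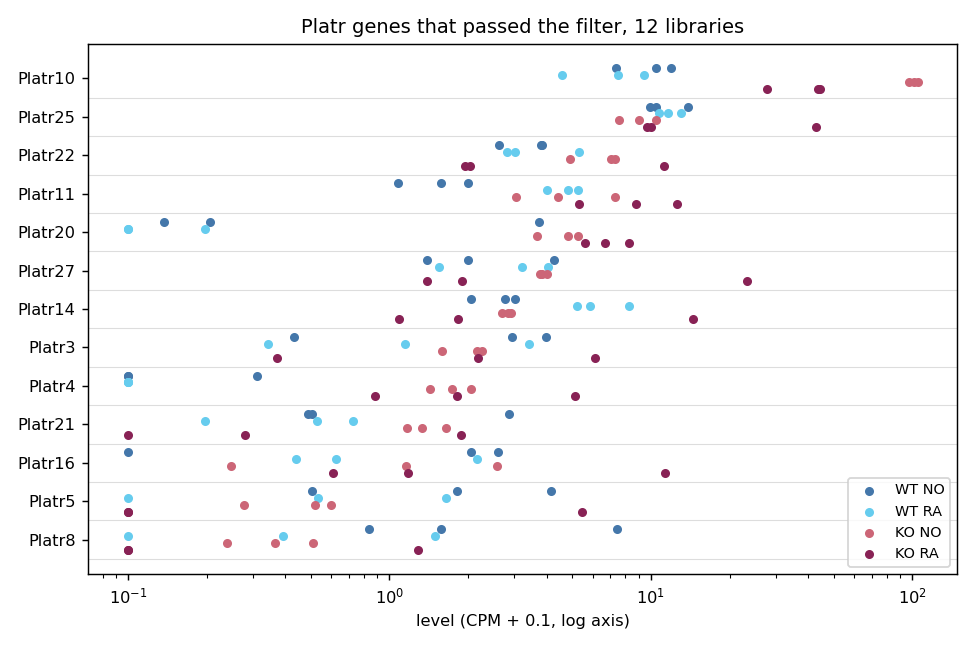
Levels of Platr10 and the 12 other Platr genes that passed the filter, as CPM plus 0.1 on a log axis, with a point for each library coloured by group and rows ordered by the mean in KO NO. Platr10 in KO NO (97.3 to 105 CPM) lies to the right of all other points, and in several other rows the point farthest right is library KO RA 3.

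The surroundings of both genes were described next. Of 58 annotated genes within 500 kb of Mir9-3hg, 42 were in the table and 17 passed the filter. Between genotypes without RA edgeR called 0 (by an unadjusted p under 0.05, 2 were higher), DESeq2 2 and the other alternatives 0 to 3. Their median log2 fold change was 0.20, against 0.17 over all 1254 tested genes of chromosome 7. Polg, the mitochondrial DNA polymerase, 30334 bp to the left, had 23.4 ± 6.71 CPM in WT NO and 27.8 ± 2.77 CPM in KO NO. Fanci, a DNA repair gene at 46417 bp, had 5.31 ± 0.669 and 8.60 ± 0.611 CPM, without overlap (log2 fold change 0.70, SE 0.22, edgeR adjusted p = 0.195). To the right, the lncRNA gene Gm35040 at 1606 bp had 0.368 ± 0.0860 and 0.260 ± 0.0986 CPM. A330074H02Rik lies inside Mir9-3hg on the same strand and could share reads with it. It had 0.251 ± 0.295 and 0.250 ± 0.0398 CPM. The nearest tested genes on either side, Gm35040 and Polg, had log2 fold changes of −0.49 and 0.25, beside 6.08 for Mir9-3hg. Whether the region as a whole differed between genotypes was not tested.

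One neighbour of Mir9-3hg was called after RA. Anpep, which encodes the membrane enzyme aminopeptidase N and lies 287397 bp to the right, had 2.39, 2.55 and 0.594 CPM in KO RA and 0.144, 0.291 and 0.0955 CPM in WT RA. All KO RA libraries were above (log2 fold change 3.38, SE 0.71, edgeR adjusted p = 0.0478). Without RA it had 4.53, 2.75 and 2.71 CPM in KO and 0.222 to 0.823 CPM in WT, also without overlap, and did not pass (log2 2.71, SE 0.65, edgeR adjusted p = 0.0795). The call after RA held under 5 of 17 alternatives and was lost when any one of 10 libraries was left out.

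Of 17 annotated genes within 500 kb of Platr10, 15 were in the table and 3 passed the filter. None of the 3 was called by edgeR in any comparison. By an unadjusted p under 0.05, 1 was higher without RA and 2 after RA between genotypes, 1 with RA in KO cells, and 0 otherwise. DESeq2 called 1 without RA and 0 in the other comparisons. The nearest, Serpini1, encodes neuroserpin, an inhibitor of proteases secreted by neurons. It lies 3946 bp to the left on the opposite strand, so that the genes run toward each other. It had 0.669, 0.776 and 0.884 CPM in WT NO and 5.97, 5.27 and 4.77 CPM in KO NO. The groups did not overlap, and the log2 fold change of 2.77 (SE 0.58) lay at the threshold without passing it (edgeR adjusted p = 0.05004). It passed under 6 of 19 alternatives, among them DESeq2 (adjusted p = 0.000694) and edgeR without KO RA 3 (adjusted p = 0.00360). After RA it had 1.31, 1.63 and 5.45 CPM in KO and 0.625 to 1.91 CPM in WT, with overlap (edgeR adjusted p = 0.274). Pdcd10, 90000 bp to the left, had 52.8 ± 1.98 CPM in WT NO and 63.4 ± 7.58 CPM in KO NO (edgeR adjusted p = 0.960). In KO RA it had 73.3 and 77.2 CPM in libraries 1 and 2 and 619 CPM in library 3. Golim4, 217049 bp to the right, had 25.5 ± 3.66 and 21.2 ± 3.29 CPM. The median log2 fold change of the 856 tested genes of chromosome 3 was 0.10.

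**Figure D4:**
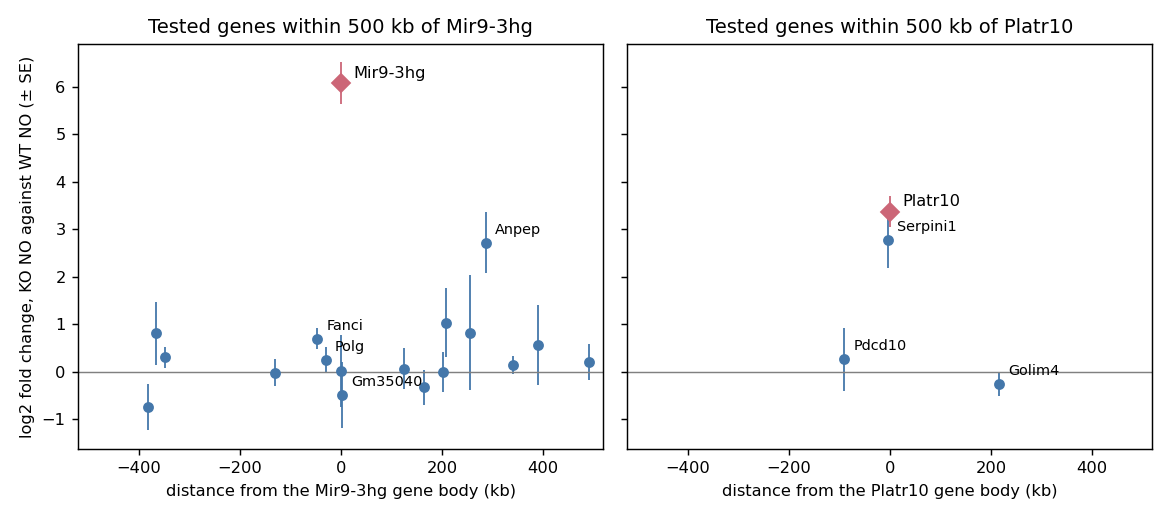
Log2 fold change between genotypes without RA (KO NO over WT NO, y axis, with SE) of each tested gene within 500 kb, against its distance in kb from Mir9-3hg (left, 17 genes) or Platr10 (right, 3 genes), with the gene itself as a diamond at 0. Mir9-3hg at 6.08 stands above all its neighbours, of which Anpep is the highest at 2.71, while Serpini1 at 2.77 is beside Platr10 at 3.37.

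Other lncRNA genes moved in both directions. Besides Mir9-3hg and Platr10, 1326 lncRNA genes were tested, and 3 were called higher and 4 lower in KO NO against WT NO. Of all tested genes 0.788% were higher and 0.351% lower there. By an unadjusted p under 0.05, 58 lncRNA genes were higher and 106 lower. The median log2 fold change of the 1326 was −0.29, against −0.02 over all tested genes. In KO RA against WT RA 3 lncRNA genes were called higher and 6 lower, where 0.885% and 0.358% of all tested genes were. With RA, 8 rose and none fell in WT cells, where 0.321% of all tested genes rose and 0.0848% fell. In KO cells 34 rose and 4 fell with RA, where 3.89% of all tested genes rose and 1.59% fell. The 5 with the smallest adjusted p in KO NO against WT NO were Gm20005, 5930430L01Rik, Gm48623, ENSMUSG00000120693 and Gm11627. Gm20005 had 16.5, 20.9 and 17.8 CPM in KO NO, where WT NO had 0.671 to 1.94 CPM (log2 fold change 3.78, SE 0.44, edgeR adjusted p = 0.00338) and stayed at 9.56 to 21.1 CPM in KO RA. 5930430L01Rik was listed at 0 in all WT NO libraries and had 0.921 to 1.11 CPM in KO NO (edgeR adjusted p = 0.0171). Gm48623 was listed at 0 in all KO NO libraries and had 0.211 to 0.406 CPM in WT NO (edgeR adjusted p = 0.0155). The other two were lower in KO NO, Gm11627 at 10.3 ± 1.02 against 30.6 ± 11.2 CPM (edgeR adjusted p = 0.0252) and ENSMUSG00000120693 at 0.416 ± 0.113 against 2.63 ± 0.482 CPM (edgeR adjusted p = 0.0184).

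Of 27 well-known lncRNA genes, 20 passed the filter. In KO NO against WT NO edgeR called 1, which was lower, where 0.351% of all tested genes were lower and 0.788% higher. By an unadjusted p under 0.05, 5 of the 20 were higher and 2 lower, and the alternatives called 0 to 5. The gene called was the imprinted Peg13, which was listed at 0 in all KO libraries and had 0.422, 0.406 and 1.83 CPM in WT NO (edgeR adjusted p = 0.0487, lost when any one of 10 libraries was left out). After RA edgeR called 0 between genotypes (by an unadjusted p under 0.05, 3 higher and 2 lower), DESeq2 2 and the other alternatives 0 to 6. Of all tested genes 1.24% were called there. With RA edgeR called 1 higher in WT cells and 2 in KO cells, where 0.321% and 3.89% of all tested genes rose. By an unadjusted p under 0.05, 9 of the 20 were higher in WT cells and 10 in KO cells, and 0 lower in both. H19, an imprinted RNA that hosts miR-675, rose with RA in WT cells from 0.176 to 0.244 CPM up to 1.11 to 1.39 CPM (edgeR adjusted p = 0.0368), and in KO cells from 0.497 to 1.07 CPM up to 2.12 to 3.47 CPM (edgeR adjusted p = 0.0327). Miat, a lncRNA of the nervous system, was listed at 0 in KO NO and had 0.396 to 0.992 CPM in KO RA, at least 7.95-fold higher (edgeR adjusted p = 0.0260). The calls of H19 were lost when any one of 11 libraries (WT) or 6 libraries (KO) was left out, and that of Miat for 4.

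Genes with the most similar course over the 12 libraries were then found. The measure was the root-mean-square (RMS) difference between log2 CPM profiles, each centred on its own mean. Before the log, 2 counts (scaled to library size) were added, which narrows the changes of genes near 0. The genotype difference that chose Mir9-3hg and Platr10 is part of these profiles. For Mir9-3hg the nearest were Spag16 (RMS 0.669), Rec8 (0.676), Hormad2 (0.689), Meiosin (0.692) and Penk (0.693), against a median of 2.49 over all tested genes. In the edgeR fit their log2 fold changes between genotypes without RA were 9.42, 7.07, 5.505, 5.36 and 7.38, beside 6.08 for Mir9-3hg. Rec8, a meiotic cohesin, Hormad2, a protein of meiotic chromosome axes, and Meiosin, a switch into meiosis, are genes of germ cells. Spag16 is a gene of sperm tails and motile cilia, and Penk encodes the precursor of enkephalins. Spag16 was listed at 0 in all 6 WT libraries and had 2.34, 3.73 and 3.68 CPM in KO NO. Hormad2 had 0.0915 to 0.458 CPM in WT NO against 10.1, 9.09 and 11.1 CPM in KO NO. After RA it had 7.13, 7.79 and 12.4 CPM in KO cells, a range that overlaps KO NO (edgeR adjusted p = 0.847). From KO NO to KO RA none of these 5 passed the test. Of 5 listed markers of germ cells, 4 were at or under 3 counts in every WT library, and their sum was 0 to 0.305 CPM in WT libraries and 0.306 to 4.26 CPM in KO libraries. Stra8 was at or under 3 counts in all groups. Their part in the level of Mir9-3hg was not tested.

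For Platr10 the nearest profiles were those of Cyb5r2 (RMS 0.536), the lncRNA gene 5930430L01Rik (0.555), Hjv (0.559), Syt5 (0.564) and Zcwpw1 (0.590), against a median of 1.70. Zcwpw1, a reader of histone marks in meiotic cells, was the one of these with a level like that of Platr10. It had 128, 143 and 144 CPM in KO NO, where WT NO had 12.9 to 26.9 CPM. With RA it had 78.1, 80.3 and 179 CPM in KO cells, overlapping KO NO. Cyb5r2, a cytochrome b5 reductase, had 0.414 to 0.643 CPM in KO NO, where WT NO had 0 to 0.0369 CPM. Platr10 and Mir9-3hg were less alike than these, with an RMS of 1.02. Platr10 was number 43 in likeness to Mir9-3hg, and Mir9-3hg number 132 in likeness to Platr10. Without KO RA 3, a comparison added after the data were seen, the 5 nearest of Mir9-3hg took numbers 2 to 10 and those of Platr10 numbers 3 to 12. In the edgeR fit, 5930430L01Rik, Hjv and Syt5 changed by log2 7.72, 7.54 and 6.55 between genotypes without RA. Zcwpw1 changed by 2.85, beside 3.37 for Platr10. The likeness of genes at or near 0 in WT cells thus depends on the 2 added counts.

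**Figure D5:**
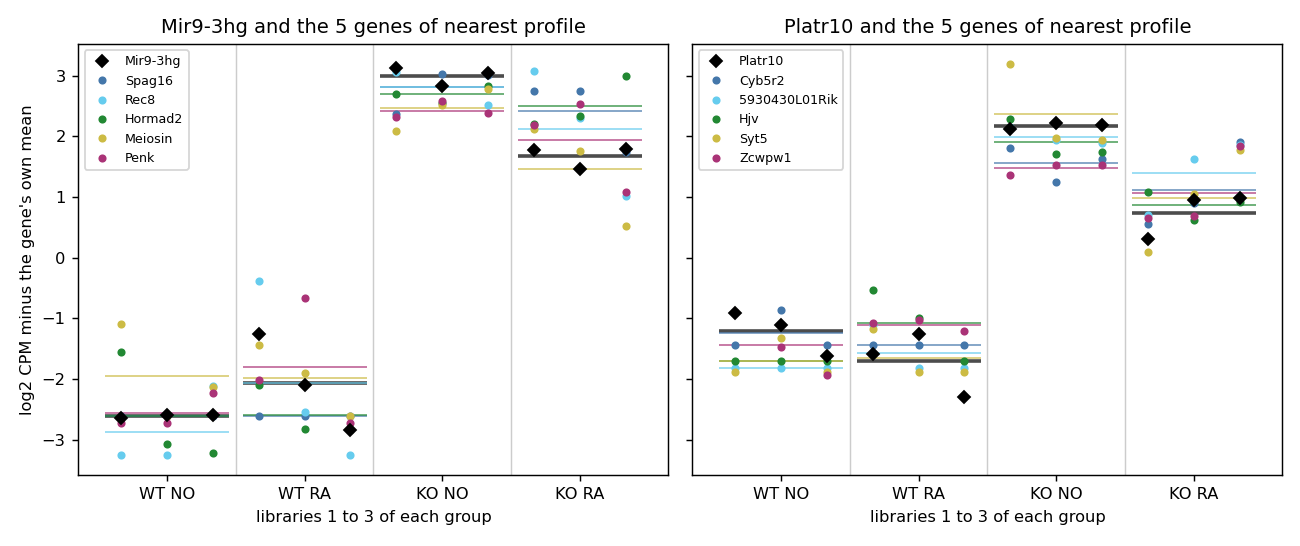
Log2 CPM minus the gene's own mean in the 12 libraries, for Mir9-3hg (left) and Platr10 (right) as black diamonds and for the 5 genes of nearest profile as coloured points, with lines at the group means. All genes are low in both WT groups and high in KO NO, and the drop of the group mean from KO NO to KO RA is larger for Mir9-3hg than for Hormad2 or Spag16. The log2 values include the 2 added counts.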

How the data were processed

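RNA of 12 NE-4C libraries was analysed, 3 per group, with groups from the deposited sample records. The authors ran nf-core/rnaseq (STAR and Salmon, GRCm39) and deposited estimated counts per gene, scaled from TPM, which corrects for gene length, and not normalized between libraries. The submitters' processing notes name DESeq2. Rounded counts went into edgeR 4.0.16 under R 4.3.3 (TMM factors, filterByExpr, 1 coefficient per group, robust quasi-likelihood F test, 8 residual degrees of freedom). Calls needed an adjusted p under 0.05 (Benjamini-Hochberg, 16502 genes). SE was computed from the fold change and F. CPM used the rounded counts. The floor is 3 counts: a group is at it where no library exceeds it (counting error only). Counts scaled from TPM are not read counts, so the floor and the sampling noise are approximate. Alternatives used DESeq2 1.42.0 and limma 3.58.1. The test was checked on simulated counts. P-values measure the spread between passages.

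Positions came from GENCODE vM39, which held 56310 of the gene identifiers, and hairpins and promoters from RefSeq tables (GRCm38.p6), placed on GRCm39 by exact match with Python 3.11.15. Figures used matplotlib. Members and lists were chosen with earlier results of these data known. Named were both genes, Faf2, host and Platr genes that passed the filter or held a miR-9 hairpin, nearest and called neighbours, in 3 further lists the genes called between genotypes and up to 4 per RA comparison, the 5 nearest profiles and 5 leading lncRNA genes. A few are given only in the counts. Zcchc11, Zcchc6 and 2900097C17Rik had no match.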

Additional observations from a re-analysis of the deposited data

How the results depend on the processing

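Alternatives were DESeq2's Wald test, edgeR with DESeq2 size factors, genes kept from 1 count, at least 10 counts in every library (which removed Mir9-3hg), only the libraries compared, limma-voom with quality weights, the replicate number as a block, and each library left out. No direction reversed in any result tried. The log2 fall of Mir9-3hg with RA in KO cells lost its call with DESeq2 size factors (−1.25, edgeR adjusted p = 0.0562), no filter (−1.38, adjusted p = 0.0712), only the libraries compared (−1.29, adjusted p = 0.0770) and the replicate block (−1.33, adjusted p = 0.0785), and lay between −1.43 and −1.19 with 1 library left out. That of Platr10 lost its call with only the libraries compared (−1.36, edgeR adjusted p = 0.0907), kept it with the replicate block (−1.40, adjusted p = 0.0461), and lay between −1.52 and −1.17 with 1 library left out. The difference of the RA response of Mir9-3hg was called by DESeq2 (−2.16, adjusted p = 0.0423), and the RA response of Platr10 in WT by limma-voom (−0.78, adjusted p = 0.0457). Mir9-3hg in KO RA against WT RA ran from 3.498 to 4.48 without 1 library. Host genes called from KO NO to KO RA numbered 2 with at least 10 counts or only the libraries compared, 3 with the replicate block and 2 to 5 without 1 library. The cause was not tested.

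Same-numbered libraries did not deviate together (correlations −0.167 to 0.0677 over 18 pairs, none over 0.1), so no shared effect of the number on expression was seen. Whether same-numbered libraries were collected together cannot be told from this. Counts of called genes moved most. In KO NO against WT NO edgeR called 188, the block 56, DESeq2 1015, limma-voom 3566, only the libraries compared 718 and at least 10 counts 43. From KO NO to KO RA these were 904, 467, 2632, 4531, 196 and 661. Leaving out KO RA 3 gave 1521 and 2776, took WT RA against WT NO from 67 to 1868, KO RA against WT RA from 205 to 1707 and the interaction from 0 to 232. CPM without TMM factors gave Mir9-3hg 0.200, 0.309, 14.5 and 4.70 and Platr10 10.7, 6.65, 117 and 35.3 CPM in WT NO, WT RA, KO NO and KO RA. At about 5 scaled counts a library, depth limits Mir9-3hg in WT cells.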
